A study of Mus musculus with 6 samples.

Results

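Microglia, the resident macrophages of the brain, were followed through 10 genes in the deep cerebellar nuclei of mice trained in eyeblink conditioning: the complement genes C1qa, C1qb and C1qc, the receptor genes Cx3cr1, Csf1r and Itgam, and Aif1, Cd68, Tyrobp and Ctss. Members were all probe sets, on 3 array designs called A, B and C, whose platform annotation named only 1 of these genes. This gave 10 of 15944 genes and 15 of 36701 probe sets, 13 on design A, 0 on design B and 2 on design C. Every gene had at least 1 probe set, and C1qb, C1qc, Cx3cr1, Csf1r and Cd68 had 2 each. No probe set that named several genes included a member.

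The dissected region had at its centre the anterior interpositus, the output nucleus on which the conditioned blink depends, and came from male C57BL/6 mice aged 11 to 18 weeks. In the paired group a tone of 352 ms was followed 252 ms after its onset by a shock of 100 ms beside the eye, over 7 days. In the unpaired group the same tone and shock came apart in a pseudorandom order, also over 7 days. All mice had wires implanted in the left eyelid and a headstage on the head, recovered for 3 days before training, and were sampled within 10 to 30 min, so neither group is free of surgery or shock. As far as the labels tell, each group was 1 pool of 10 to 15 nuclei, taken on the wired side and read on 1 array per design. With 1 array per group and design there was no replicate, so no difference has a p-value, and 6 arrays limit the precision of everything below.

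Microglia survey the tissue, clear debris and trim synapses. C1q is the starter molecule of the classical complement pathway: it is built from A, B and C chains, made in the brain mainly by microglia, and can tag synapses for removal through the complement receptor CR3, of which Itgam encodes the alpha subunit. Csf1r is the growth factor receptor on which microglia depend for survival, Cx3cr1 is their receptor for the neuronal chemokine fractalkine, and Tyrobp is the adaptor through which several of their surface receptors signal. Macrophages at the borders of the brain express most of these genes too.

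The members differed little between the pools. Of the 15 probe sets, 10 lay above the signal filter, which was the median of the design's mean log2 signal, and these 10 covered 8 of the 10 genes. Aif1 and Itgam lay under it. No member probe set was past 1.5-fold in either direction, with or without the filter. In the background, 0.609% of the filtered probe sets of designs A and C, and 0.675% of all their probe sets, were past it, so a count of 0 of 15 is near the background. Log2 ratios of paired over unpaired, after scaling within the design, ran from -0.061 to 0.33 in the 10 probe sets above the filter, with 6 higher and 4 lower in the paired pool. Averaged per gene, 4 genes were higher and 4 lower (6 and 2 with quantile or loess scaling, where C1qb and Ctss changed sign), with a median of 0.017 beside -0.0039 for all 10576 genes measured the same way, of which 49.0% were higher. In bulk tissue, fewer cells of a type and less RNA per cell cannot be told apart.

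**Figure D1:**
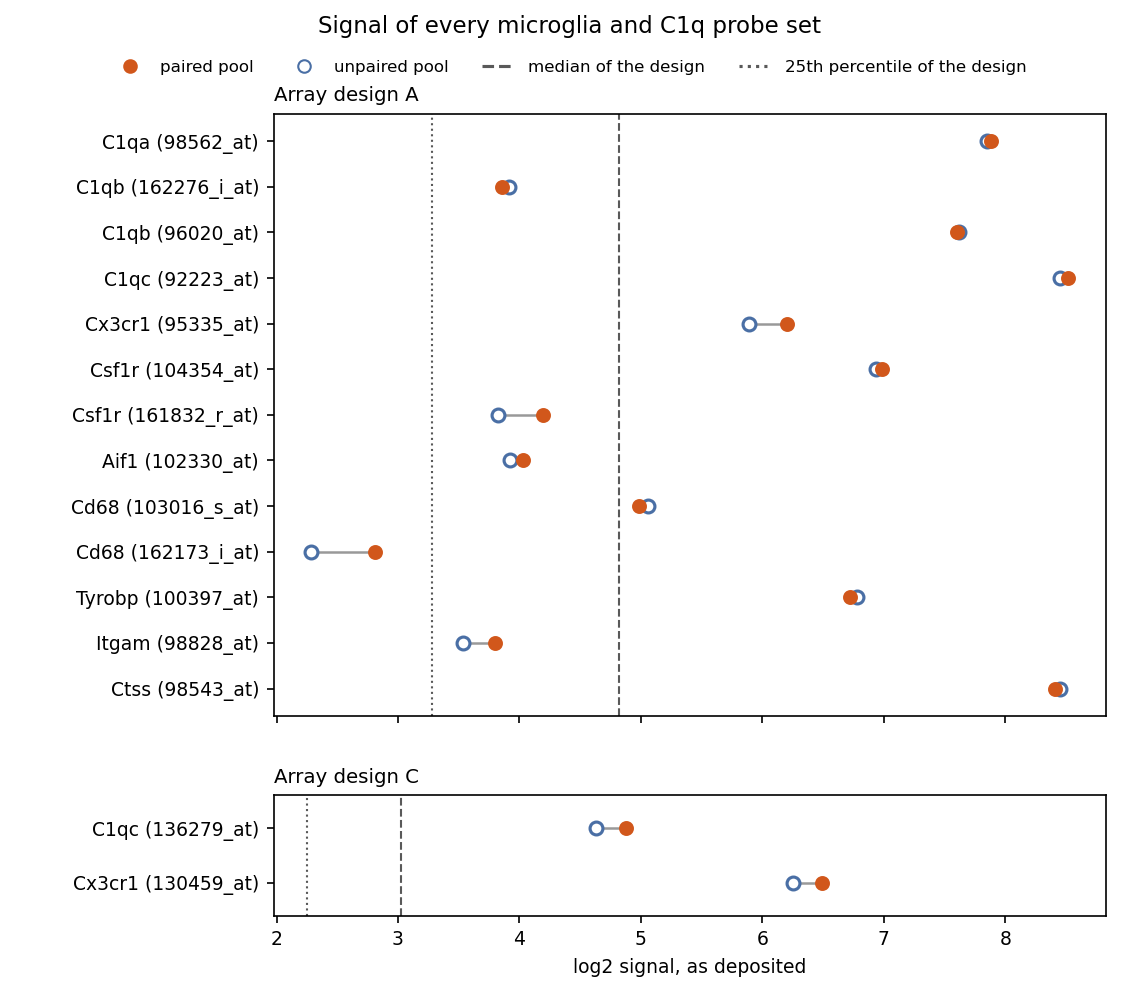
Log2 signal as deposited (horizontal axis) of each of the 15 member probe sets in the paired pool (filled) and the unpaired pool (open), 1 array each, on designs A and C. The dashed line is the median of the design and the dotted line its 25th percentile. On design A the points of C1qa, C1qc, Ctss, Tyrobp and the brighter C1qb and Csf1r probe sets nearly coincide, those of Cx3cr1 on both designs and of C1qc on design C lie further apart, and 5 probe sets lie left of the dashed line.

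The 3 C1q genes gave strong and nearly equal signals in the pools on design A. C1qa, on chromosome 4, had a log2 signal of 7.88 in the paired pool and 7.85 in the unpaired pool, percentile ranks of 91.7 and 91.2 among the probe sets of the design. C1qb had 7.61 in the paired and 7.62 in the unpaired pool on probe set 96020_at, at percentile ranks of 89.8 and 89.5. C1qc had 8.52 in the paired and 8.45 in the unpaired pool on design A, at percentile ranks of 95.0 and 94.4. Percentiles place a probe set within its array and do not order the transcripts, since probe sets differ in how well they bind. The log2 ratios were 0.042 for C1qa, -0.0071 for C1qb and 0.074 for C1qc on these probe sets, all smaller than the SD of 0.16 to 0.18 that the log2 ratios of probe sets of similar signal had on the design.

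The second C1qc probe set, on design C, had 4.87 in the paired pool and 4.63 in the unpaired pool, a log2 ratio of 0.25 or 1.19-fold. The ratio exceeded the SD of 0.19 among probe sets of similar signal, and 16.9% of the filtered probe sets of design C had a larger ratio in absolute size. The C1qc ratios of designs A and C differed by 0.18, less than the SD of 0.29 between probe sets of a gene on different designs. A second C1qb probe set, 162276_i_at, lay under the filter with 3.85 in the paired and 3.91 in the unpaired pool; its letter i marks a probe set with fewer usable probes. Over the genes C1qa, C1qb and C1qc the mean log2 ratio was 0.066 ± 0.088 (SD over 3 genes, not over animals), with 2 higher and 1 lower.

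C1qb, C1qc and C1qa are neighbours in that order on chromosome 4, with no annotated gene between them in the RefSeq table of assembly GRCm38.p6. Promoters, from 250 bases before to 50 after the gene start in RefSeq's GRCm38.p6 annotation, were on hand for 7 members and not for C1qa, Csf1r and Tyrobp. They were searched on both strands for GAGGAA, a core of sites bound by PU.1, the myeloid transcription factor encoded by Spi1. The letters were found in 6 of the 7 promoters, C1qb, C1qc, Aif1, Cd68, Itgam and Ctss, against 28.3% of the 32851 promoters in the table. The longer GAGGAAGT, which contains the shorter run, was in 2 of the 7, C1qc and Ctss, against 3.20% of all promoters. A match is a description of the letters and not evidence of binding. The promoters of the C1q genes at chr4:136886151-136886450 (C1qb) and chr4:136892865-136893164 (C1qc), both on the minus strand, are shown because these genes sit side by side and both differed little on design A; the sequences shown and the letters searched were chosen after the values were seen. Capitals mark GAGGAA or its reverse complement TTCCTC, first base at -30 from the start in C1qb and at -193 in C1qc.
C1qb: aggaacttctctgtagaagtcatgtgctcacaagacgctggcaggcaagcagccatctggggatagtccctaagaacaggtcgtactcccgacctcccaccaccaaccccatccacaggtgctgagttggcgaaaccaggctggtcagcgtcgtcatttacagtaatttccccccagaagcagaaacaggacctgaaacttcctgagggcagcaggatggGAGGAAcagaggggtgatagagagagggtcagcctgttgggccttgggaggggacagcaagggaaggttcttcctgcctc
C1qc: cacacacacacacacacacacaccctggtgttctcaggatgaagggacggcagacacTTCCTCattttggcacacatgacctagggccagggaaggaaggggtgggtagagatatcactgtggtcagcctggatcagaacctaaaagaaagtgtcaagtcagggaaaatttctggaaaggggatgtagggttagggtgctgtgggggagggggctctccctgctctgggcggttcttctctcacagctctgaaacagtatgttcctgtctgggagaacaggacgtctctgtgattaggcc

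Cx3cr1 had the largest absolute mean log2 ratio of the 8 measured members, with the paired pool above the unpaired on each design that carries it. On design A, probe set 95335_at had a log2 signal of 6.21 in the paired pool and 5.89 in the unpaired pool, percentile ranks of 72.1 and 67.1 among the probe sets of the design. On design C, probe set 130459_at had 6.49 in the paired pool and 6.25 in the unpaired pool, at percentile ranks of 92.6 and 90.8. The paired pool was the higher on each design, by log2 ratios of 0.33 and 0.24, or 1.26-fold and 1.18-fold. These exceed the SD of 0.20 and 0.17 among probe sets of similar signal, while 8.69% and 18.4% of the filtered probe sets of the designs had a larger ratio in absolute size. The mean of 0.29 lay at percentile 95.6 of all measured genes and at percentile 98.0 of the 2405 genes with 2 filtered probe sets. Among those 2405 genes, 23 (0.956%) had both log2 ratios at or above the smaller Cx3cr1 ratio, a limit set after its value was seen. Genes with both ratios equally far down were not counted. Arrays of designs A and C may carry the same pooled RNA, so their agreement covers probe and array error and not the spread between pools of mice.

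The Cx3cr1 promoter, at chr9:120068247-120068546 on the minus strand, is shown in contrast to the C1q promoters because it was the only one of the 7 in which neither GAGGAA nor its reverse complement was found, so its sequence has no capitals. That says only that these letters are not in this window.
Cx3cr1: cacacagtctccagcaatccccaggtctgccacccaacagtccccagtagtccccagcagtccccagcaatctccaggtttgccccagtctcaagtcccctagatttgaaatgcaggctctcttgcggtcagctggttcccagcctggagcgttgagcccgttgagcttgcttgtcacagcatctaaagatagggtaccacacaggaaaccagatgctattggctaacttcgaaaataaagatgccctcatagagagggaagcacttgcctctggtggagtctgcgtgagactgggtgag

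**Figure D2:**
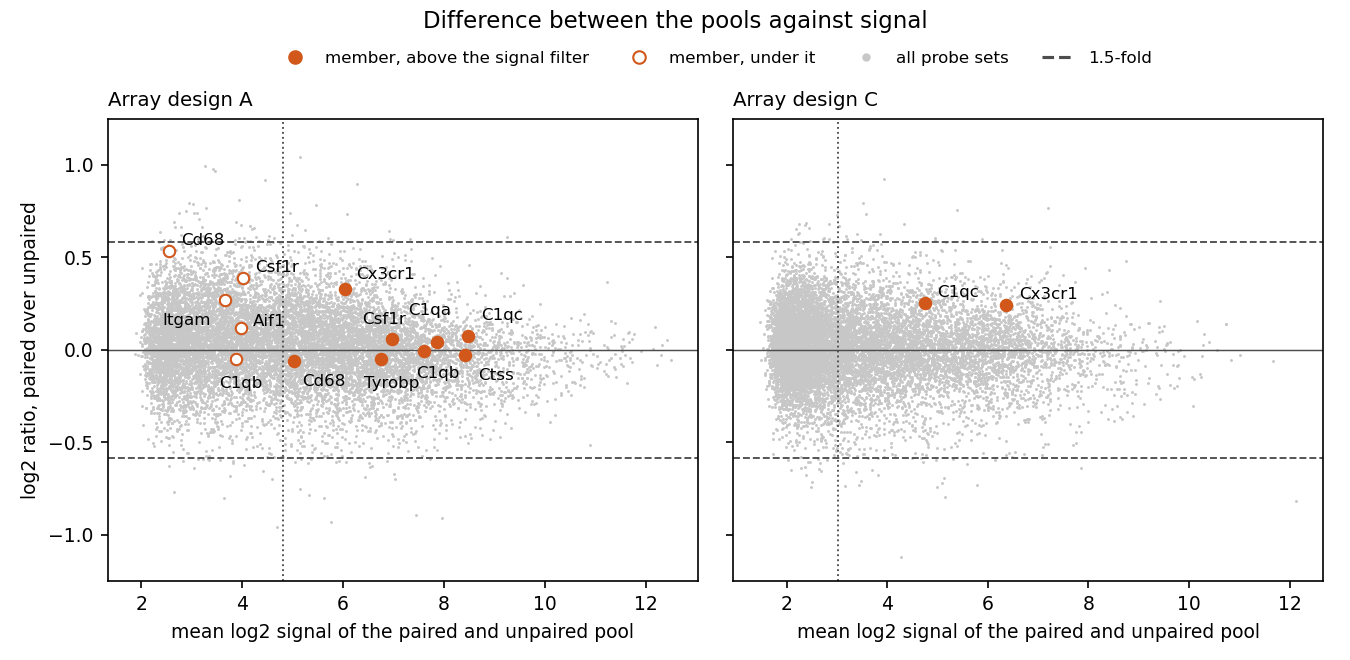
Log2 ratio of paired over unpaired, after scaling (vertical axis), against the mean log2 signal of the pools (horizontal axis) on designs A and C, with all probe sets in grey and the members in orange, filled above the signal filter and open under it. Dashed lines mark 1.5-fold and the dotted line the median signal. No member lies outside the dashed lines, and Cx3cr1 lies above 0 on both designs, at 0.33 and 0.24.

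The other receptor genes differed less, or were read by dim probe sets. Csf1r had 6.99 in the paired and 6.94 in the unpaired pool on probe set 104354_at, at percentile ranks of 83.3 and 82.5, a log2 ratio of 0.060. Its second probe set, 161832_r_at, read 4.20 in the paired and 3.82 in the unpaired pool, at percentile ranks of 40.0 and 34.6. The log2 ratio of 0.39 there was 0.33 apart from that of the bright probe set, more than the SD of 0.28 between probe sets of a gene on 1 design. That SD came from probe sets above the signal filter only, and 161832_r_at lay under it. Itgam had 3.80 in the paired and 3.54 in the unpaired pool, a log2 ratio of 0.27 at percentile ranks of 33.4 and 29.9. The SD of log2 ratios among probe sets as dim as these was 0.21. The letter r marks a probe set for which some design rules were dropped.

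The adaptor and the lysosomal members differed little. Tyrobp had 6.72 in the paired and 6.78 in the unpaired pool, at percentile ranks of 79.8 and 80.4, a log2 ratio of -0.049. Ctss, which encodes the lysosomal protease cathepsin S, had 8.41 in the paired and 8.45 in the unpaired pool, at percentile ranks of 94.5 and 94.4, a log2 ratio of -0.030. Cd68, a lysosomal membrane glycoprotein of macrophages, had 4.98 in the paired and 5.06 in the unpaired pool on probe set 103016_s_at, a log2 ratio of -0.061. That probe set was the member closest above the signal filter, by 0.21, and its letter s marks probes that several transcripts share. Each of these differences was smaller than the SD of 0.16 to 0.21 among probe sets of similar signal.

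The remaining members were dim. The other Cd68 probe set, 162173_i_at, had 2.81 in the paired and 2.29 in the unpaired pool, both under the 25th percentile of the design, so its log2 ratio was 0 with the floor and 0.54 without. Aif1, which encodes the microglial protein Iba1, had 4.03 in the paired and 3.92 in the unpaired pool, a log2 ratio of 0.12. The member closest under the signal filter was the dim Csf1r probe set, at -0.80 from the median of the design. Before the floor was set, 4 of the 5 probe sets under the filter were higher in the paired pool, against 56.9% of all probe sets under it on designs A and C. Of the 5, 3 lay beyond the SD at their signal level, against 30.4% of all such probe sets, a difference that was not tested. Above the filter 3 of 10 lay beyond it, both Cx3cr1 probe sets and C1qc on design C, a share near the 28.5% of all probe sets there. A dim probe set does not show that a transcript is missing: probe sets of Calr, a chaperone that cells use broadly, and of Cnp, an abundant myelin gene, lay at percentile ranks of 11.9 and 11.4.

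The Ctss promoter, at chr3:95526536-95526835 on the plus strand, is shown beside that of C1qc because these were the members with the longer GAGGAAGT, which reads as ACTTCCTC on the printed strand. Capitals mark GAGGAA and its reverse complement, first base at -164 and at 1 from the start.
Ctss: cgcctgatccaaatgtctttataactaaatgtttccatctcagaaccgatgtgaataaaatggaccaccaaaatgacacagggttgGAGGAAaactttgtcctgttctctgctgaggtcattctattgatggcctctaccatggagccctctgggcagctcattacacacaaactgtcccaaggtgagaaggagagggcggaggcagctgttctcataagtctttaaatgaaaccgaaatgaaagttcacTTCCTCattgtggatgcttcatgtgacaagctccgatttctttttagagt

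Ligands and partners of the members were compared next, with 7 of 15 listed genes measured, 4 higher and 3 lower in the paired pool (3 and 4 with loess scaling) and a median log2 ratio of 0.014. The ligand genes differed little. Cx3cl1, which encodes fractalkine, had log2 ratios of -0.054 and 0.19 on its probe sets, and the Csf1r ligands Csf1 and Il34 had -0.13 and 0.063. Cst3, the secreted cathepsin inhibitor cystatin C, had a mean of -0.081 from -0.18 and, on its brighter probe set, 0.013. Syk, the kinase recruited by Tyrobp, had 0.014. Sirpa, the inhibitory receptor on microglia, had a mean of 0.22 from 0.14 and 0.30, and its ligand Cd47 a mean of -0.12 from -0.11 and -0.14. Itgb2, the beta subunit that pairs with Itgam in CR3, lay at a percentile rank of 12.0 on its only probe set and was not measured above the filter.

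Other genes of the complement cascade and its regulators were also near level, with 13 of 29 measured, 7 higher, 6 lower and a median of 0.0029. With no, quantile or loess scaling 6 were higher and 7 lower, at medians of -0.0074, -0.0021 and -0.0084. The largest absolute ratios were 0.26 for C1qbp, -0.16 for the anaphylatoxin receptor gene C5ar1, and -0.15 for Clu, an inhibitor of the terminal complex. The value of C1qbp, a mitochondrial protein first found through binding to C1q, is the mean of 0.42 and, on its brighter probe set, 0.099. That of Clu is the mean of -0.32 and, on its brighter probe set, 0.024. C1ra, the protease that C1q activates, had 0.14 and C4b, the next component, 0.12, named after their values were seen. Relatives that share the C1q domain had a median of 0.022 over 8 of 20 genes, 6 higher and 2 lower (5 and 3 with no scaling). Cbln1, which granule cells release to organise synapses with Purkinje cells, had 0.046, C1qtnf4 had 0.097 and C1ql3 -0.17, while Emilin1 had -0.41 and C1qtnf2 0.30.

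Further microglia genes went both ways. Of 30 listed, 16 were measured, 7 higher and 9 lower (6 and 10 with no, quantile or loess scaling), with a median of -0.039. Spi1, which encodes PU.1, had 5.31 in the paired and 4.94 in the unpaired pool, a log2 ratio of 0.39. Its only probe set lay close above the signal filter, at a percentile rank of 54.9. Cyth4 had 0.36 and the secreted glycoprotein gene Olfml3 -0.28. Tmem119, a surface marker that separates microglia from other macrophages, had 0.16, and P2ry12, another such marker, lay at a percentile rank of 8.50, under the filter; both were named after their values were seen. Genes of reactive microglia and lysosomes had a median of -0.0020 over 12 of 26, 6 higher and 6 lower (5 and 7 with loess scaling). H2-Ab1, a class II histocompatibility gene, had 0.36 and Cd9 -0.11. The glycoprotein gene Gpnmb had a mean of 0.21 from -0.013 and 0.43. No gene of these 5 related lists was past 1.5-fold above the signal filter. Under it, Ctsz, which encodes the lysosomal protease cathepsin Z, had -0.70 and the C1q-domain collagen gene Col8a1 0.59, both past 1.5-fold and named after their values were seen.

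Markers of the other macrophages and of blood cells bear on the members, since macrophages share these transcripts. Border macrophage and monocyte markers were higher in the paired pool in all 6 measured genes of 13 listed, against 49.0% of all measured genes. This held also with no, quantile or loess scaling. The largest ratios were 0.31 for Folr2, at a percentile rank of 57.3, 0.23 for F13a1 and 0.18 for Clec10a. The measured markers had a median of 0.14. Their mean log2 signal was 5.98 in the paired and 5.82 in the unpaired pool on design A, 5.46 in the paired and 5.36 in the unpaired pool on design B, and 5.33 in the paired and 5.17 in the unpaired pool on design C, from 2 probe sets each. The defining markers Mrc1, Cd163, Lyve1, Pf4, Ccr2 and Cbr2 lay between percentile ranks 5.62 and 24.0, under the filter. Among these dim markers, deposited signals of Mrc1 and Cd163 were lower in the paired pool. Those of Lyve1, on its brightest probe set, Pf4, Ccr2 and Cbr2 were higher. Neutrophil and lymphocyte markers had a median of 0.083 over 6 of 16 genes, 4 higher and 2 lower (3 and 3 with loess scaling), with Elane at a mean of 0.23 from 0.53 and -0.066, Ms4a1 at -0.22 and Gzma at 0.20, and S100a8 and S100a9 under the filter. Red cell genes had -0.089 over 4 of 8, 1 higher and 3 lower, with Hbb-b2 at -0.44, Alas2 at 0.14 and Hba-a1 at -0.098. The part of these cells in the Cx3cr1 difference was not tested.

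**Figure D3:**
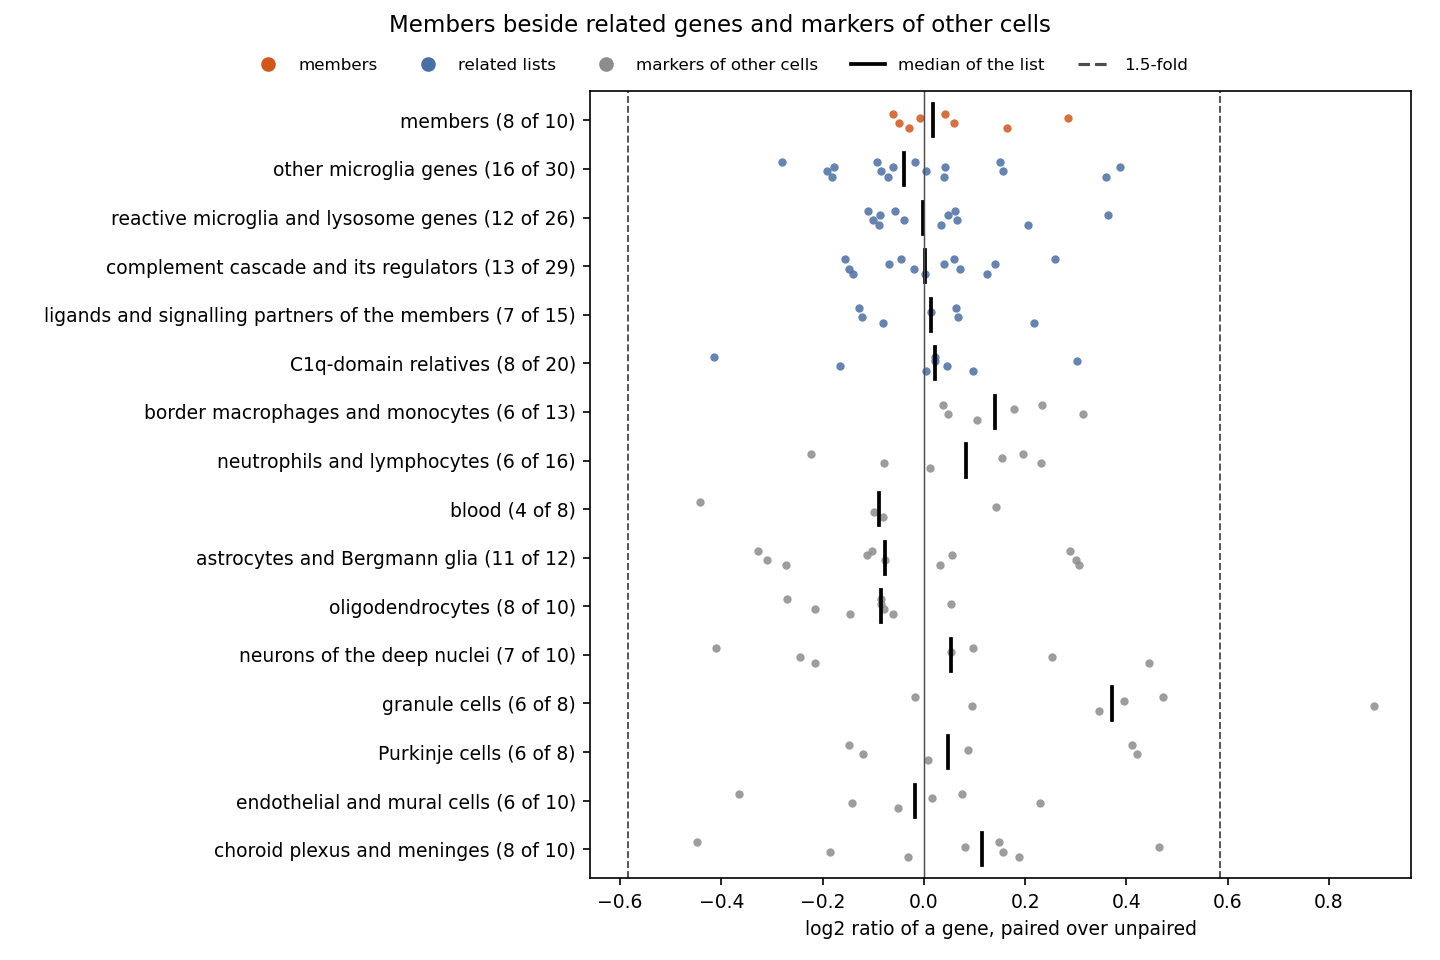
Log2 ratio of paired over unpaired for each measured gene (points, mean over its probe sets above the signal filter) by list, with the list's median as a black bar, dashed lines at 1.5-fold, and in brackets the number of measured genes of those listed. The 8 measured members lie between -0.061 and 0.29 around a median of 0.017, the 6 border macrophage markers all lie above 0, and the granule cell list, with Gabra6 past 1.5-fold, has a median of 0.37.

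Of the markers of neurons, other glia, vessels and meninges, only Gabra6, a granule cell gene, was past 1.5-fold above the filter by gene mean. Single probe sets above the filter were also past it for Car8, at 0.61, and Slc17a6, at 0.85. Granule cell markers were higher in 5 of 6 measured genes, with a median of 0.37. Gabra6 had 0.89, Fat2 0.47 and Cadps2 0.40. Purkinje cell markers were higher in 4 of 6 (3 with no scaling), with a median of 0.048. Car8 had a mean of 0.42 from 0.24 and 0.61, Ppp1r17 had 0.41 and Slc1a6 -0.15. Oligodendrocyte markers were lower in 7 of 8, with a median of -0.084. Sox10 had a mean of -0.27 over 3 probe sets, with -0.015 on the brightest, and Cldn11 had -0.22. Ugt8a had a mean of -0.15 from probe sets that disagreed, at -0.51 and 0.22. The members' median of 0.017 lay between the oligodendrocyte median and the granule and Purkinje cell medians. Astrocyte and Bergmann glia markers had -0.077 over 11 genes, with S100b at -0.33. Fabp7 had a mean of -0.31 from -0.51 and, on its brightest probe set, -0.11. Atp1b2 had a mean of 0.31 from 0.55 and, on its brightest probe set, 0.067. Neurons of the deep nuclei, whose markers were bright at a median percentile rank of 97.6, had 0.053 over 7. Among these, Gad2 had 0.44 and Gad1 -0.41. Slc17a6 had a mean of 0.25 from 0.85, -0.083 and -0.0025, the last on its brightest probe set. Endothelial and mural markers had -0.018 over 6, with Cldn5 at -0.37, Pecam1 at 0.23 and Flt1 at a mean of -0.14 over 4 probe sets of which 1 was higher, and choroid plexus and meninges 0.11 over 8, with Fmod at 0.46, Ttr at -0.45 and Islr at 0.19. The part of tissue makeup in the members' values was not tested.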

How the data were processed

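Total RNA of the pooled nuclei was labelled as biotin cRNA, per the labels' protocols, and read on 6 arrays of 1 colour, 1 for each training group and design. The authors deposited 1 value per probe set and array, read here as log2 signal from its range. The log base is an inference, and how the probes were summarized, background corrected and normalized is not given in the sources used here. After 198 control probe sets were set aside, 36701 were left, of which 29131 had 1 gene symbol, 724 several and 6846 none. Platform symbols were updated from RefSeq (GRCm38.p6), with a match for 29130 of those with 1 symbol.

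Each design was handled alone, in Python 3.11.15 with pandas 2.3.3 and statsmodels 0.14.6. The letters A to C in the labels were read as designs, since their tables hold different probe sets. Scaling subtracted -0.010, -0.0084 and -0.0067 from the paired array on designs A, B and C. This raised that array slightly and put the median log2 ratio of the brighter probe sets at 0. Signals below a design's 25th percentile were raised to that value (the floor). Genes were summarized as the mean log2 ratio of those of their probe sets that reached the median of the design's mean signal, the signal filter. Quoted signals are as deposited. Percentile ranks of members are among all probe sets of an array. Those of other genes rank the mean signal of the pools, after scaling, within the design, on the gene's brightest probe set. The SD between probe sets of a gene came from pairs above the signal filter, 2017 on 1 design and 2196 on different designs, and measures probe and array error. Each design was also split by signal into 10 equal bins, and the SD of log2 ratios, without the floor, was taken in each. The steps were tested on simulated data.

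With 1 array a group no test was run, and past 1.5-fold stands in for a call. All members were named. Of each other list the text names the 3 measured genes with the largest absolute log2 ratio and any past 1.5-fold, all measured ligands and partners, and the 3 brightest C1q-domain relatives. Genes named otherwise were chosen for their role or after their values were seen. No gene was named for a like pattern, since 2 arrays per design give none. The members, lists and promoter letters were chosen with earlier results of these data known.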

Additional observations from a re-analysis of the deposited data

How the results depend on the processing

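The 13 alternatives were no, quantile and loess scaling, leaving out the floor or raising it to the median, leaving out the signal filter or setting it at the 75th percentile, the brightest probe set per gene, no suffixed probe sets, probe sets with several symbols counted, and each design alone. No member probe set passed 1.5-fold under the 12 that measured one. The median of the member genes ran from 0.0068 to 0.25, and was 0.25 on design C alone, where it rests on Cx3cr1 and C1qc only. It was 0.079 over all 10 genes with no signal filter. The mean of the C1q genes ran from 0.036 to 0.25, and was 0.25 on design C alone, where it rests on C1qc only. Under the other alternatives it was at most 0.10, with quantile scaling. Cx3cr1 ran from 0.24 to 0.33. The median of the other microglia genes ran from -0.14 to 0. C1qb and Ctss turned to the other sign under quantile and loess scaling, and lay within 0.040 of 0 under all alternatives that measured them. With the floor at the median the dim Csf1r and Itgam probe sets went to 0, since both their arrays lie under it. Design B alone measured no member. Only 1 array per pool and design, and the dimness of Aif1, Itgam and the second probe sets, limit what these data can show. No paired analysis was possible because neither group had replicates.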
